A study of Mus musculus with 96 samples.

Results

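The Rbfox family consists of Rbfox1, Rbfox2 and Rbfox3, and the 3 genes were followed through every peak that the authors had annotated to them in 6 tables of hippocampal chromatin immunoprecipitation followed by sequencing (ChIP-seq). Of 22815 peaks in the 6 tables, 22 carried an Rbfox symbol, with 3 at Rbfox1, 4 at Rbfox2 and 15 at Rbfox3. The study asked whether loss of the DNA glycosylases Ogg1 and Mutyh, which act in base excision repair of oxidative DNA damage, changes chromatin marks in neurons and in other hippocampal cells. Male C57BL/6N mice were 6 months old and were untreated, and 4 genotypes were compared: wild type (WT), Ogg1-/-, Mutyh-/-, and mice without either enzyme (Ogg1xMutyh-/-, the double knockout or DKO). The knockouts were constitutive and not restricted to a cell type, and each of the 3 replicates of a genotype was a pool of hippocampi from several animals. Nuclei had been separated by an antibody against NeuN into a NeuN+ and a NeuN- fraction, and chromatin was precipitated for H3K4me3, H3K27me3 or Suz12. H3K4me3 marks active promoters, while H3K27me3 is deposited at silent genes by Polycomb repressive complex 2 (PRC2), to which Suz12 belongs.

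Rbfox proteins are RNA-binding proteins that recognise a short motif in introns of pre-mRNA and promote or block the inclusion of nearby exons. Rbfox1 is expressed in neurons, heart and skeletal muscle, Rbfox2 in many cell types, and Rbfox3 in most mature neurons. NeuN, the antigen on which the nuclei were sorted, is the product of Rbfox3, so that each fraction was defined by the protein of one of the 3 genes. All 3 genes are long and use several alternative promoters, which give rise to proteins with different amino ends.

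The sequences of 2 promoters of Rbfox3 and 1 of Rbfox2 show where the marks lay and where they did not (Mus musculus, GRCm38, RefSeq; minus strand, 5′ to 3′, CpG dinucleotides in capitals). The first is the middle of the H3K4me3 peak at the distal promoter of Rbfox3, at chr11:118908655-118908954 in intron 1. The second precedes the RefSeq start of Rbfox3 between its distal and its internal promoter, at chr11:118761042-118761291, where no table held a peak. The third is from the Rbfox2 promoter peak that was found in both fractions, at chr15:77306331-77306543, and runs from the coding part of exon 1 into intron 1.
Rbfox3 distal promoter: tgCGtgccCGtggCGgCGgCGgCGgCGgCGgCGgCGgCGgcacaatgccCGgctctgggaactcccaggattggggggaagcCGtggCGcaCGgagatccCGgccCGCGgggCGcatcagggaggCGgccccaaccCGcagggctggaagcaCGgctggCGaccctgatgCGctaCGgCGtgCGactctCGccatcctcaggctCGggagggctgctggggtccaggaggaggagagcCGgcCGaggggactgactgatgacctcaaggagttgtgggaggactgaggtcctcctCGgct
Rbfox3 middle start: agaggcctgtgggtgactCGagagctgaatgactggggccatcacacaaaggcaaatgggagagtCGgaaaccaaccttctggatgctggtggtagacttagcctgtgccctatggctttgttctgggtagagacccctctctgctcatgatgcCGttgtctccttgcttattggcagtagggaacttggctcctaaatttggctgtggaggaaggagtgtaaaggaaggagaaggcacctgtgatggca
Rbfox2 first promoter: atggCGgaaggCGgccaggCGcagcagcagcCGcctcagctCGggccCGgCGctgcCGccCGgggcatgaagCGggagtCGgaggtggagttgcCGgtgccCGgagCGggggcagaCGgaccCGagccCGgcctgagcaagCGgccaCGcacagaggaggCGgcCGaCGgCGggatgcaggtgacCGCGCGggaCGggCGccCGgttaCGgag
The distal stretch of Rbfox3 held 32 CpGs in 300 bases, an observed to expected ratio of 0.831. The Rbfox2 stretch was denser, with 30 CpGs in 213 bases and a ratio of 0.983. By contrast, the 250 bases before the middle start of Rbfox3 held 3 CpGs, a ratio of 0.182. That was low but not rare, since the median of the 250-base stretches before 32851 RefSeq starts was 0.373 and 8874 of them had a lower ratio.

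The 3 tables with an Rbfox peak were H3K4me3 in NeuN+ nuclei (8 of 12628 peaks), H3K4me3 in NeuN- nuclei (1 of 3270) and H3K27me3 in NeuN- nuclei (13 of 1698). The other 3 tables, H3K27me3 in NeuN+ nuclei (4132 peaks), Suz12 in NeuN+ nuclei (775) and Suz12 in NeuN- nuclei (312), held no Rbfox peak. Values are normalised reads per 401-bp peak, that is reads divided by a factor for each library. The libraries held 96023 to 548706 reads in peaks for H3K4me3 in NeuN+ nuclei, 39320 to 120004 for H3K4me3 in NeuN- nuclei and 19132 to 78250 for H3K27me3 in NeuN- nuclei, where the median peak had 1 to 8 reads. The fractions were checked against genes that mark cell types. Of 14 genes of neurons, 13 had an H3K4me3 promoter peak in NeuN+ nuclei and 0 of 14 in NeuN- nuclei. Of 23 genes of glia and vessels, 3 had one in NeuN+ nuclei (Mbp, Slc1a2, Slc1a3) and 2 in NeuN- nuclei (Olig1, Slc1a2), so the defining genes of non-neuronal cells were mostly without a peak in the NeuN- table as well. H3K27me3 separated the lists less in NeuN- nuclei, with a promoter peak at 3 of the 14 genes of neurons and 3 of the 23 others. In NeuN+ nuclei H3K27me3 promoter peaks were at 2 and 8 of them. A gene without a peak had no value in a table, and its signal there is not known from these values. For Rbfox3 the study showed browser tracks with high H3K4me3 in NeuN+ nuclei. In NeuN- nuclei it described H3K4me3 there as largely missing and H3K27me3 as enriched.

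Rbfox3 was marked by H3K4me3 in NeuN+ nuclei at 2 promoters that lie 339 kb apart, and had no H3K4me3 peak in NeuN- nuclei. The gene lies on the minus strand at chr11:118489762-118911597 and has 10 annotated transcripts over 422 kb. The distal peak, at chr11:118908605-118909005, was 545 bp downstream of the start of the long coding transcripts (ENSMUST00000117731.7). The internal peak covered the start of a shorter coding transcript (ENSMUST00000136551.2). Another coding start, of ENSMUST00000103023.7, was 148 kb from the nearest H3K4me3 peak. The coding start farthest downstream, of ENSMUST00000154746.7, was 29998 bp from its nearest H3K4me3 peak, which was annotated to Engase and not to Rbfox3. The most upstream coding start (ENSMUST00000069343.11) was 2592 bp from the distal peak.

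**Figure D1:**
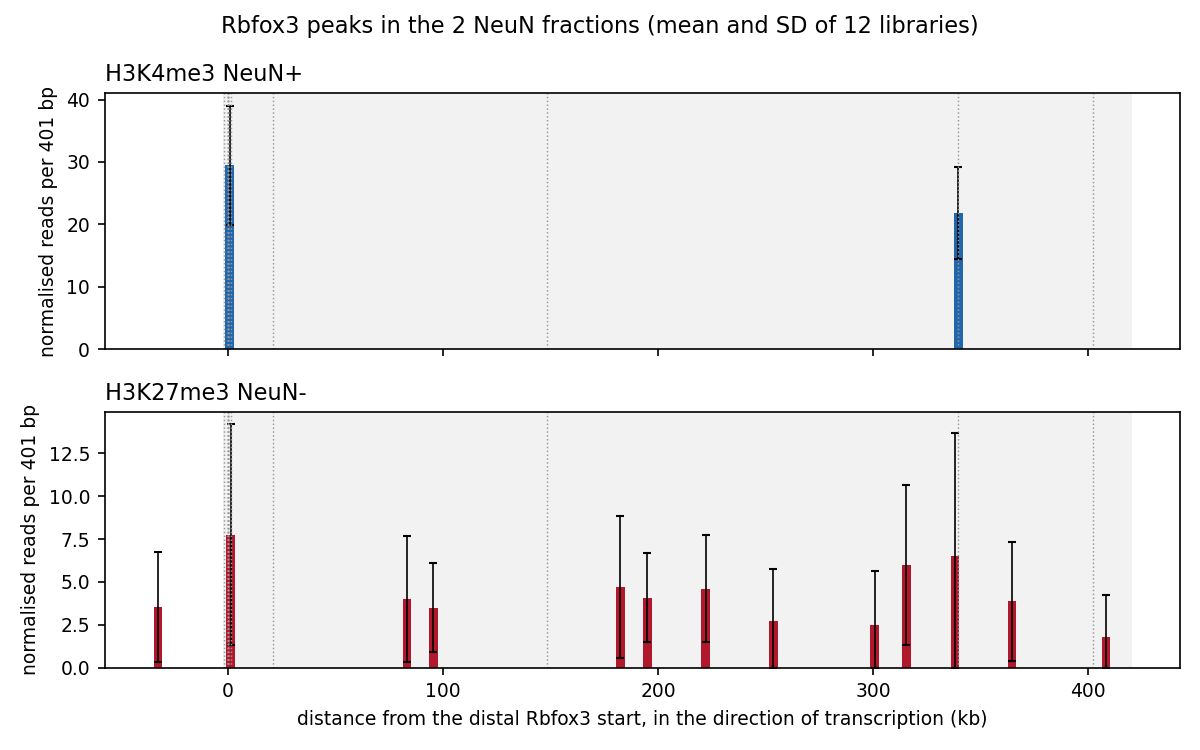
Peaks annotated to Rbfox3 along the gene, by distance from the distal start in kb (x axis), with the mean and SD over 12 libraries in normalised reads per 401 bp (y axis); the grey area is the gene and dotted lines are annotated starts. H3K4me3 in NeuN+ nuclei stood at 2 promoters, with means of 29.5 and 21.8, and H3K27me3 in NeuN- nuclei at 13 peaks spread over 441 kb, with means of 1.78 to 7.75.

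At the distal Rbfox3 promoter, H3K4me3 was 25.7, 20.5 and 24.8 normalised reads in the WT libraries. It was 13.1, 31.2 and 30.7 in Mutyh-/-, 30.9, 35.9 and 44.6 in Ogg1-/-, and 29.3, 45.8 and 21.2 in DKO. All 3 Ogg1-/- libraries lay above all 3 WT libraries, while the other genotypes overlapped WT. A separation of Ogg1-/- from WT, above or below, was found at 3.68% of all H3K4me3 peaks in NeuN+ nuclei. The log2 fold change of Ogg1-/- against WT was 0.62 (SE 0.41, limma adjusted p = 1.00), which passed neither the adjusted nor the unadjusted threshold.

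At the internal Rbfox3 promoter, H3K4me3 was 37.3, 13.7 and 20.5 normalised reads in WT. It was 19.6, 17.5 and 20.1 in Mutyh-/-, 21.4, 11.3 and 32.3 in Ogg1-/-, and 20.3, 20.1 and 28.0 in DKO. Every knockout overlapped WT, whose 3 libraries spanned a wider range than those of any knockout. Over the 12 libraries the distal peak had a mean of 29.5 ± 9.53 (SD), higher than 75.8% of the peaks of its table, and the internal peak 21.8 ± 7.38, higher than 42.6%.

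Since both promoters were read in the same libraries, their balance does not depend on the scaling. The distal peak had more reads than the internal peak in 9 of 12 libraries, with 362 reads against 264 in all. Its share of the reads of both was 40.8%, 60.0% and 54.8% in WT (mean 51.9 ± 9.92%, SD, n = 3). The share was 40.0%, 64.2% and 60.3% in Mutyh-/- (54.8 ± 13.0%), 59.1%, 76.1% and 58.0% in Ogg1-/- (64.4 ± 10.1%) and 59.1%, 69.5% and 43.1% in DKO (57.2 ± 13.3%). The groups overlapped in all 3 contrasts. The log2 ratio of distal to internal reads, with 1 read added to each, was higher than in WT by 0.18 in Mutyh-/-, 0.75 in Ogg1-/- and 0.32 in DKO. Exact two-sided permutation tests gave p = 0.7, 0.3 and 0.6 (adjusted over the 3 contrasts 0.7 each), where 3 libraries against 3 cannot go below 0.1.

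That Rbfox3 had no H3K4me3 peak in NeuN- nuclei can be set beside peaks of like level, because the NeuN- table held fewer peaks. Of 5921 promoter peaks in NeuN+ nuclei with 0.8 to 1.25 times the mean of the distal peak, 35.3% overlapped an H3K4me3 peak in NeuN- nuclei. For the internal peak it was 18.4% of 4858. The closest H3K4me3 peak in NeuN- nuclei lay 280 kb from the internal promoter, at Usp36. Most NeuN+ promoter peaks of such a level therefore lacked a NeuN- partner too, and no test of a difference between fractions was possible without a value in NeuN- nuclei.

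Rbfox2, on chromosome 15, was the only member with an H3K4me3 peak in both fractions. The gene (chr15:77078990-77307004, minus strand, 15 transcripts) had 3 H3K4me3 peaks in NeuN+ nuclei, each at a promoter, here called the first, the second and the third in the direction of transcription. At the first (chr15:77306330-77306730) the values were 46.3, 30.2 and 35.5 in WT, 15.3, 24.8 and 37.7 in Mutyh-/-, 34.5, 18.5 and 40.0 in Ogg1-/-, and 18.0, 38.6 and 33.4 in DKO. With a mean of 31.1 ± 9.85 over 12 libraries it was the highest of the 8 Rbfox peaks in NeuN+ nuclei, above 81.8% of the table, and all knockouts overlapped WT.

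The same promoter in NeuN- nuclei (chr15:77306331-77306731) had 9.7, 8.7 and 7.1 normalised reads in WT, 16.2, 5.2 and 8.1 in Mutyh-/-, 16.8, 13.6 and 7.1 in Ogg1-/-, and 18.6, 9.3 and 7.8 in DKO. The mean was 10.7 ± 4.43, above 59.3% of the peaks of that table, and the groups overlapped. The fractions were scaled in separate tables, so their levels cannot be compared: NeuN+ to NeuN- came to 31.1 against 10.7 in normalised reads but to 103 ± 20.3 against 135 ± 56.7 in reads scaled to the same total of reads in peaks (RPM). Of promoter peaks in NeuN+ nuclei with a level like that of the first Rbfox2 promoter, 38.2% of 5464 also had a peak in NeuN- nuclei.

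The second and the third promoter peaks of Rbfox2 were among the lowest in the table. The second (chr15:77244721-77245121, 385 bp from the start of ENSMUST00000228361.1) had 1.3, 8.8 and 12.9 in WT, 13.1, 10.1 and 2.6 in Mutyh-/-, 20.2, 6.2 and 14.6 in Ogg1-/-, and 13.5, 4.8 and 9.9 in DKO. Its mean of 9.83 ± 5.47 was above 4.83% of peaks, and the groups overlapped. The third (chr15:77152171-77152571, 985 bp from the start of ENSMUST00000227314.1) had 11.6, 9.8 and 6.5 in WT, 2.2, 1.8 and 2.6 in Mutyh-/-, 8.3, 6.2 and 10.8 in Ogg1-/-, and 4.5, 14.5 and 10.6 in DKO. All 3 Mutyh-/- libraries lay below all WT libraries, and the mean over 12 libraries was 7.44 ± 4.13, above 2.07% of peaks. A separation of Mutyh-/- from WT, above or below, was found at 5.77% of all peaks of the table. Both peaks were also poor in CpG, with observed to expected ratios of 0.262 and 0.291. The first promoter had 1.06 and the median H3K4me3 peak in NeuN+ nuclei 0.794.

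Rbfox1, on chromosome 16, had 3 H3K4me3 peaks in NeuN+ nuclei and no peak in any other table. It is the longest of the 3 genes, with 8 transcripts over 1526 kb (chr16:5885355-7411526, plus strand). The first promoter (chr16:5885352-5885752) had 25.7, 18.5 and 14.0 normalised reads in WT, 15.3, 34.0 and 26.3 in Mutyh-/-, 35.7, 18.5 and 48.4 in Ogg1-/-, and 13.5, 49.1 and 22.7 in DKO. The second promoter (chr16:6348952-6349352) had 14.1, 12.7 and 20.5 in WT, 26.2, 19.3 and 18.4 in Mutyh-/-, 7.1, 10.3 and 23.1 in Ogg1-/-, and 6.8, 16.9 and 22.7 in DKO. Each knockout overlapped WT at both. The third peak, in intron 4 of 11 and 29729 bp upstream of the start of ENSMUST00000229741.1 (chr16:7039717-7040117), ranged from 4.6 to 20.1 over the 12 libraries. Means were 26.8 ± 12.5, 16.5 ± 6.35 and 13.0 ± 4.34 in this order, above 64.2%, 23.1% and 11.4% of the peaks of the table, and the SDs of neighbours in that order overlapped. Of promoter peaks with a level like that of the first Rbfox1 promoter, 29.4% had a peak in NeuN- nuclei, against 9.36% for the second. The CpG ratios of the 3 Rbfox1 peaks were 0.771, 0.724 and 0.739, close to but below the median of 0.794 for H3K4me3 peaks in NeuN+ nuclei.

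**Figure D2:**
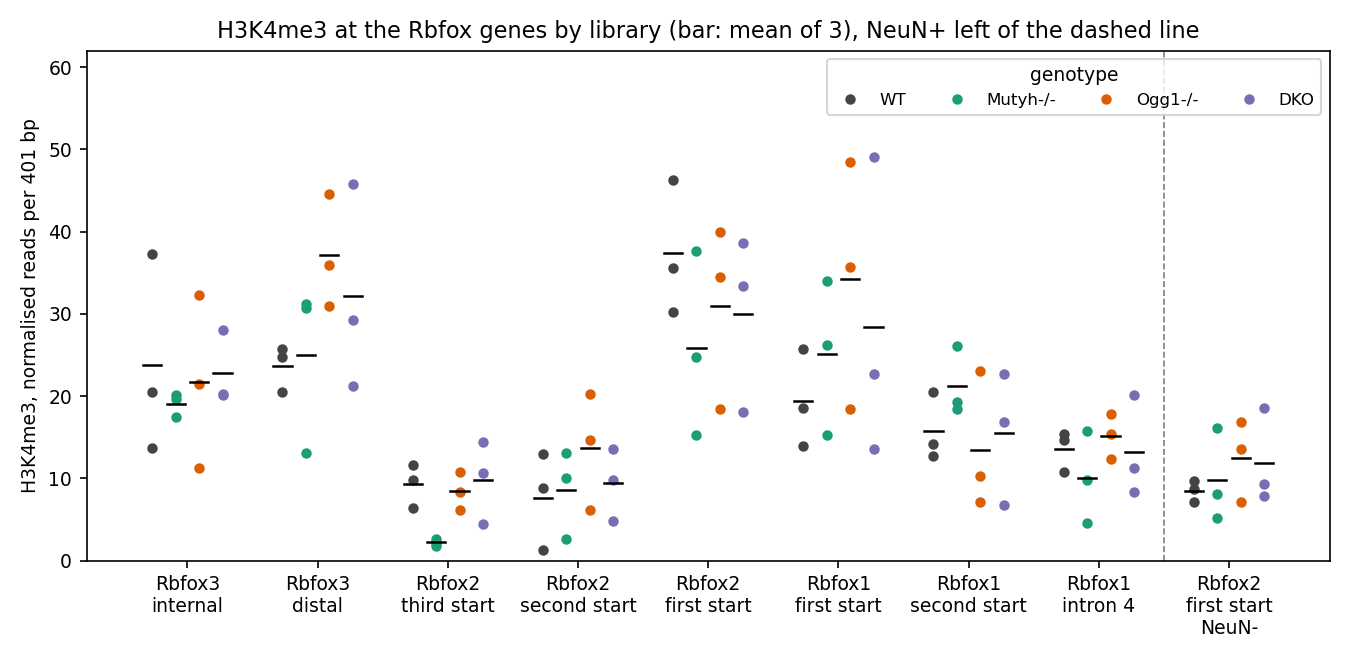
H3K4me3 in normalised reads per 401 bp (y axis) at the 8 Rbfox peaks in NeuN+ nuclei and, right of the dashed line and on a separate scaling, at the Rbfox2 promoter in NeuN- nuclei. Points are the 3 libraries of a genotype and bars their means. The third Rbfox2 start in Mutyh-/- (1.8 to 2.6) lay below WT (6.5 to 11.6), and the distal Rbfox3 start in Ogg1-/- (30.9 to 44.6) above WT (20.5 to 25.7), while the other groups overlapped WT.

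In NeuN- nuclei more H3K27me3 peaks were annotated to Rbfox3, as the closest gene, than to any other of the 1232 genes with such a peak. There were 13 in all, of which 1 was intergenic. Casz1, Prdm16 and Skap1 followed with 12 each, and 986 genes had 1. Rbfox1 and Rbfox2 had none. Of 337 genes at least as long as Rbfox3, Rbfox3 included, 41 had an H3K27me3 peak in NeuN- nuclei. These counts describe the table, which the choice of Rbfox3 had taken into account, and were not tested.

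**Figure D3:**
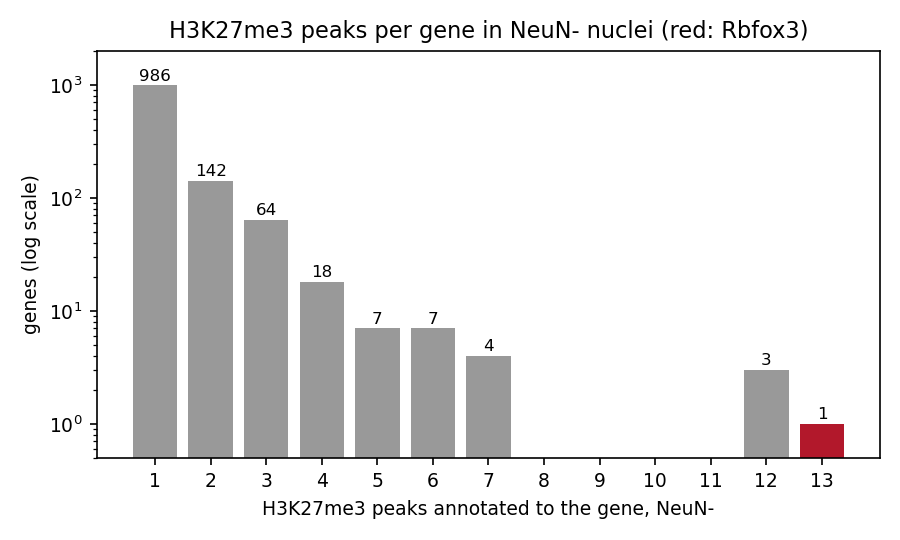
Number of genes (y axis, log scale) by the number of H3K27me3 peaks annotated to the gene in NeuN- nuclei (x axis). Rbfox3, in red, was the only gene with 13 peaks, and 986 genes had 1.

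The 13 peaks ran from chr11:118501096-118501496, in intron 8 of 13, to chr11:118941969-118942369, 30372 bp upstream of the gene, and are numbered here from 1, the intergenic peak, to 13 in the direction of transcription. They were separated by 12.2 to 87.0 kb (median 29.3 kb). In the authors' annotation 10 were intronic, 2 were at a promoter and 1 was intergenic. Their levels were low, with means of 1.78 to 7.75 normalised reads and a median of 4.02, against 4.47 for all peaks of the table. A peak had no read in 0 to 6 of the 12 libraries, and 0 reads allow up to 3 reads, or 2.45 to 3.97 normalised reads depending on the library. Most were poor in CpG, with a median observed to expected ratio of 0.174 (range 0.0998 to 0.771), where non-promoter peaks of the table had a median of 0.235 and promoter peaks 0.546. One of the 13 consisted of repeats for at least 50% of its bases.

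Both H3K4me3 promoters of Rbfox3 had an H3K27me3 peak of NeuN- nuclei beside them. Peak 2 (chr11:118908045-118908445) lay 159 bp downstream of the distal H3K4me3 peak and was the highest of the 13. It had 1.3, 4.1 and 6.9 normalised reads in WT, 22.1, 1.1 and 2.3 in Mutyh-/-, 11.4, 6.5 and 9.5 in Ogg1-/-, and 15.6, 1.8 and 10.2 in DKO, a mean of 7.75 ± 6.44. Peak 11 (chr11:118571388-118571788) lay 1270 bp upstream of the internal H3K4me3 peak. It had 1.3, 0 and 3.5 in WT, 15.4, 0 and 2.3 in Mutyh-/-, 15.8, 3.3 and 0 in Ogg1-/-, and 17.3, 15.7 and 3.4 in DKO. At peak 2 the SD was 11.8 in Mutyh-/- and 6.93 in DKO, but 2.45 in Ogg1-/- and 2.80 in WT. All knockouts overlapped WT at both peaks.

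An H3K27me3 peak of NeuN- nuclei within 2000 bp was found for 3.45% of the H3K4me3 promoter peaks in NeuN+ nuclei, and for 0 of the 5 promoter peaks of Rbfox1 and Rbfox2. Of 11160 genes with an H3K4me3 promoter peak in NeuN+ nuclei, 586 (5.25%) had an H3K27me3 peak in NeuN- nuclei. Without an H3K4me3 promoter peak in NeuN- nuclei and an H3K27me3 peak in NeuN+ nuclei, 293 remained (2.63%). Rbfox3 was among these 293 genes, and Rbfox1 and Rbfox2 were not.

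None of the 13 H3K27me3 peaks lay within 2000 bp of an H3K27me3 peak of NeuN+ nuclei or of a Suz12 peak. Among all H3K27me3 peaks of NeuN- nuclei, 39.8% lay that close to an H3K27me3 peak of NeuN+ nuclei, 18.2% to a Suz12 peak of NeuN+ nuclei and 6.07% to a Suz12 peak of NeuN- nuclei. The closest Suz12 peak to any of the 13 was 100 kb from peak 1, in NeuN+ nuclei at Cbx8, which encodes a subunit of Polycomb repressive complex 1. The closest H3K27me3 peak of NeuN+ nuclei was 108 kb away at the same gene. In nuclei from a whole fraction, fewer cells with a mark and less of the mark in each cell cannot be told apart.

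Summed over the 13 peaks, H3K27me3 at Rbfox3 was 23.8, 37.3 and 40.4 normalised reads in WT (33.8 ± 8.80, SD, n = 3). The sums were 94.2, 25.3 and 39.3 in Mutyh-/- (52.9 ± 36.4), 86.8, 39.2 and 87.0 in Ogg1-/- (71.0 ± 27.5) and 107.5, 35.1 and 51.1 in DKO (64.6 ± 38.0). All 3 knockouts overlapped WT. In Mutyh-/- 1 library lay above the range of WT, and in Ogg1-/- and DKO 2 did. The share of reads in repeat peaks moved with these sums: it was 24.4% in DKO replicate 1, 37.9% in Mutyh-/- replicate 1, 45.7% in Ogg1-/- replicate 1 and 52.9% in Ogg1-/- replicate 3, the libraries with the highest sums, and 61.8% to 82.6% in the other 8. Its part in the result was not tested. In RPM of the reads in peaks outside repeats, the sums were 3588 ± 975 in WT, 4079 ± 1390 in Mutyh-/-, 4428 ± 826 in Ogg1-/- and 4234 ± 1638 in DKO, and the differences between the means were smaller than or close to the SDs.

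**Figure D4:**
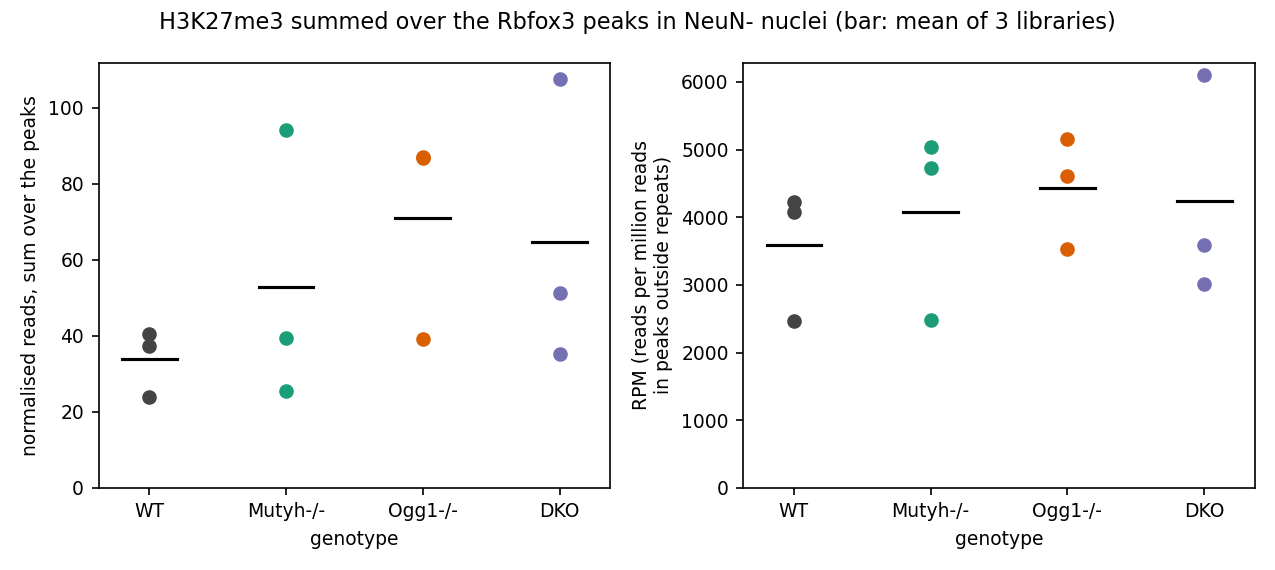
H3K27me3 in NeuN- nuclei summed over the 13 Rbfox3 peaks, by genotype (x axis), in normalised reads (left) and in RPM of the reads in peaks outside repeats (right). Points are libraries, of which those at 86.8 and 87.0 coincide, and bars are means of 3. On the left the means run from 33.8 in WT to 71.0 in Ogg1-/-, on the right from 3588 to 4428, with overlap of every knockout and WT on both.

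None of the 22 Rbfox peaks differed among the 4 genotypes at an adjusted p under 0.05 (limma F test on 12 libraries of a table, Benjamini-Hochberg adjusted over all its peaks). The test called 0% of all peaks for H3K4me3 in NeuN+ nuclei, 0.0917% for H3K4me3 in NeuN- nuclei and 0% for H3K27me3 in NeuN- nuclei. At an unadjusted p under 0.05 it also found 0 of the 22, with the smallest p at 0.117, while edgeR found 0 and DESeq2 found 2 at that level and 0 after adjustment. Over all peaks, limma found 57 of 12628 for H3K4me3 in NeuN+ nuclei, 61 of 3270 in NeuN- nuclei and 21 of 1698 for H3K27me3. In this order edgeR found 365, 68 and 34 with TMM factors, and 66, 27 and 14 with the authors' scaling. DESeq2 found 274 of 12625, 115 of 3270 and 65 of 1697. With 22 members, 0 is close to the limma shares.

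A peak was called different from WT when p was under 0.05 before adjustment and the log2 fold change was beyond 0.5 in either direction, and 3 such calls fell on Rbfox peaks. There were 2 in Mutyh-/-, 0 in Ogg1-/- and 1 in DKO. Among the 8 H3K4me3 peaks in NeuN+ nuclei 1 was called in Mutyh-/- and 0 in the others, where 0.911% (Mutyh-/-), 0.966% (Ogg1-/-) and 1.46% (DKO) of all peaks were called. The 1 peak of H3K4me3 in NeuN- nuclei was not called, where 2.94%, 3.36% and 2.29% were. Among the 13 H3K27me3 peaks 1 was called in Mutyh-/-, 0 in Ogg1-/- and 1 in DKO, against 2.00%, 4.18% and 2.30% of all peaks. With so few members, 1 call more or less moves the share by more than these rates, and adjusted p was at least 0.998 for each of the 3.

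The call that was lower in a knockout was the third Rbfox2 promoter in NeuN+ nuclei, where H3K4me3 was lower in Mutyh-/- by a log2 fold change of -1.65 (SE 0.78, limma adjusted p = 1.00). It rested on 6 to 10 reads per library in WT and 2 to 3 in Mutyh-/-. Leaving out WT replicate 1, WT replicate 2 or any of the 3 Mutyh-/- libraries ended the call, with log2 fold changes from -1.74 to -1.49, and leaving out WT replicate 3 did not (-1.86).

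Of the H3K27me3 calls, peak 5 of Rbfox3 (chr11:118726940-118727340, intron 2 of 13) had 2.6, 0 and 1.2 normalised reads in WT, 6.7, 10.6 and 11.6 in Mutyh-/-, 4.4, 0 and 8.3 in Ogg1-/-, and 7.8, 0.9 and 2.3 in DKO. Every Mutyh-/- library lay above every WT library, and a separation of these groups, above or below, was found at 6.60% of all peaks of the table. The log2 fold change was 2.39 (SE 1.16, limma adjusted p = 0.998), or 2.10 above the median of all peaks, from 0 to 2 reads in WT and 7 to 10 in Mutyh-/-. Leaving out WT replicate 2, WT replicate 3, Mutyh-/- replicate 2 or Mutyh-/- replicate 3 ended the call, with log2 fold changes from 1.89 to 2.44.

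The call in DKO was peak 11, beside the internal Rbfox3 promoter, with a log2 fold change of 2.34 (SE 1.15, limma adjusted p = 1) or 1.93 above the median of all peaks. DKO replicates 1 and 2 had 20 and 17 reads, but DKO replicate 3 had 3, the same as WT replicate 3. Mutyh-/- replicate 1 and Ogg1-/- replicate 1, with 16 and 18 reads, were as high as these. Leaving out WT replicate 1, WT replicate 2, DKO replicate 1 or DKO replicate 2 ended the call, with log2 fold changes from 1.78 to 2.39. A peak was kept when found in at least 2 of 3 replicates, and the genotype concerned is not given. Both H3K27me3 calls, on peaks low in WT, may have been kept through a knockout, and selection of that kind was not tested. At peak 10 (chr11:118593939-118594339) all Ogg1-/- libraries, with 5.3, 9.8 and 14.3, lay above WT, with 1.3, 4.1 and 2.3, without passing the test (limma adjusted p = 0.963). A separation of Ogg1-/- from WT, above or below, was found at 9.78% of all peaks of the table.

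No test set the 13 H3K27me3 peaks against the rest of their table. Their median log2 fold change was 0.25 in Mutyh-/-, 0.92 in Ogg1-/- and 0.83 in DKO, where the median of all 1698 peaks was 0.29, 0.58 and 0.41. Above 0 were 8, 12 and 10 of the 13 with the authors' scaling, but 5, 9 and 7 after cyclic loess, which centres the table. The medians were then -0.03, 0.27 and 0.37 for the 13 peaks and -0.01, -0.04 and -0.01 for all. With all libraries kept, the 13 peaks thus had the higher median in Ogg1-/- and DKO with both scalings. With the authors' scaling this order reversed in both contrasts without WT replicate 1. The medians were then 0.6905 against 0.7004 for all peaks in Ogg1-/-, and 0.535 against 0.559 in DKO. The order also reversed in Ogg1-/- without Ogg1-/- replicate 2 (0.996 against 1.115). Leaving out any other single library of these contrasts kept it. The 95% intervals of single peaks were wide and ran from -3.85 to 4.65 in Mutyh-/-. For the 8 H3K4me3 peaks in NeuN+ nuclei the median log2 fold change was -0.10, 0.01 and 0.01 in Mutyh-/-, Ogg1-/- and DKO, beside -0.07, 0.08 and -0.02 for all peaks, with 3, 4 and 4 of 8 above 0. The Rbfox2 promoter in NeuN- nuclei had log2 fold changes of 0.07, 0.44 and 0.36 (SE 0.71), beside medians of 0.22, 0.25 and 0.05 for all peaks.

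**Figure D5:**
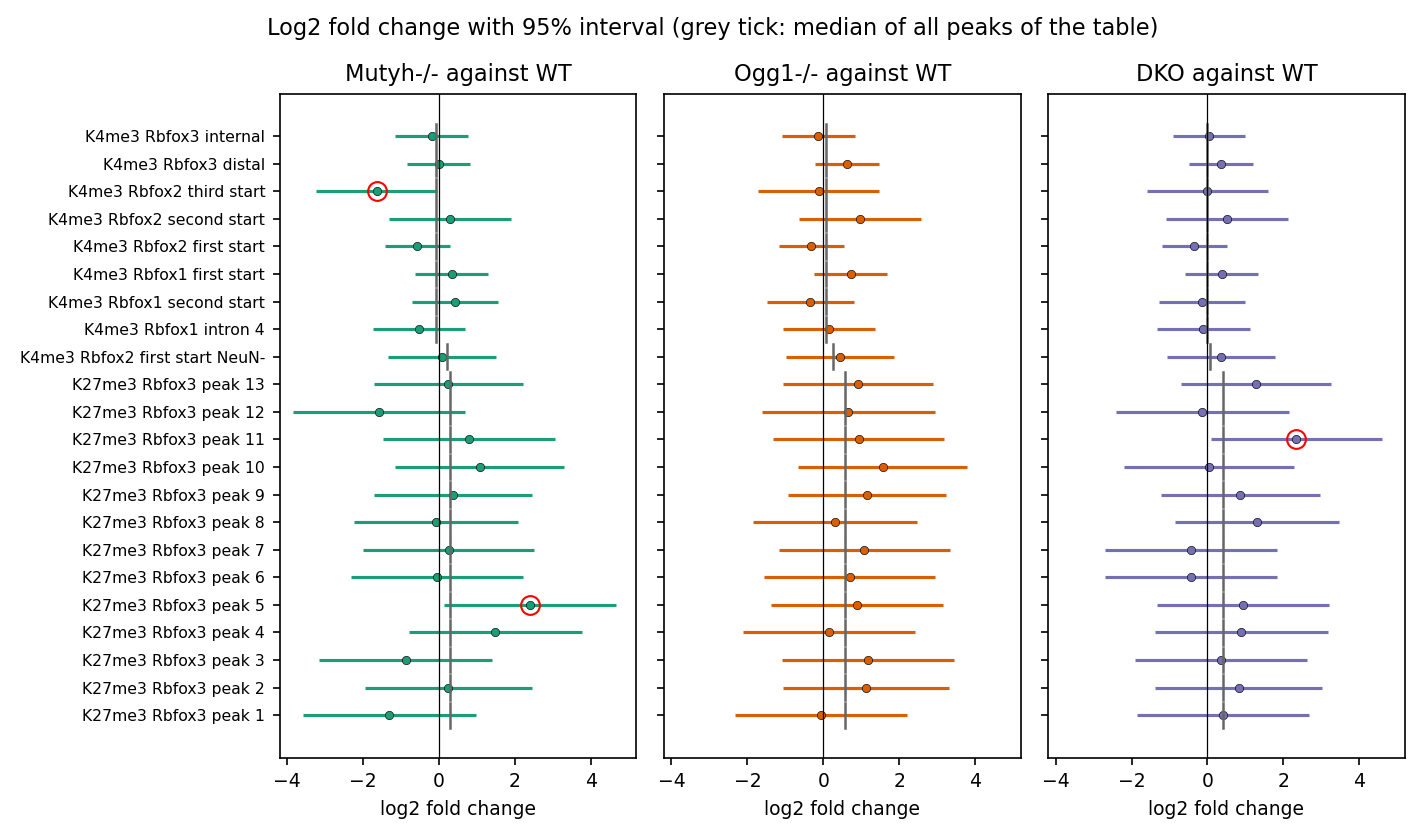
Log2 fold change against WT on the log2(value + 1) scale (x axis) with its 95% interval for the 22 Rbfox peaks (rows), in Mutyh-/-, Ogg1-/- and DKO. Grey ticks mark the median of all peaks of the table and red circles the 3 calls, at -1.65, 2.39 and 2.34. The intervals of the other peaks include 0.

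The Rbfox genes were set beside other regulators of splicing in the brain and beside partners of Rbfox proteins in the large assembly of splicing regulators (LASR), a complex through which Rbfox acts on exons. Of 25 splicing regulators, among them Nova, Celf, Elavl, Ptbp and Mbnl genes, 24 had an H3K4me3 peak in NeuN+ nuclei (32 peaks) and 7 in NeuN- nuclei. Of 8 LASR partners, 8 had one in NeuN+ nuclei and 4 in NeuN- nuclei. H3K27me3 in NeuN- nuclei was found at 5 of the 25 regulators, with 6 peaks in all against 13 at Rbfox3, and at 0 of the 8 partners. Nova1, a neuronal splicing factor, was the only one of both lists with an H3K27me3 or a Suz12 peak in NeuN+ nuclei.

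None of the peaks of either list was called in any contrast, higher or lower, in the 3 tables, where 0.911% to 4.18% of all peaks were called. With 32 or fewer peaks of a list in a table, 0 calls is close to these shares. The median log2 fold change of the 32 regulator peaks for H3K4me3 in NeuN+ nuclei was -0.03 in Mutyh-/-, 0.03 in Ogg1-/- and -0.07 in DKO, and that of the 8 partner peaks -0.28, -0.01 and -0.20, beside -0.07, 0.08 and -0.02 for all peaks. The smallest p was at an intergenic H3K4me3 peak of Nova1 (chr12:46399370-46399770), with a mean of 20.4 ± 5.94 in WT and 9.37 ± 6.35 in DKO (log2 fold change -1.28, SE 0.65, limma adjusted p = 1.00). At the promoter of Hnrnph1, which encodes a partner protein that binds G-rich RNA, the means were 19.2 ± 8.21 in WT and 12.7 ± 11.1 in DKO (log2 fold change -1.38, SE 0.78, limma adjusted p = 1.00).

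The peaks whose H3K4me3 most resembled that of the highest promoter peak of each Rbfox gene over the 12 libraries in NeuN+ nuclei were found among 11986 peaks with a mean of at least 10. For the first Rbfox1 promoter they were at Klf9 (Pearson r = 0.949), Chrd (0.930) and Btbd17 (0.912). For the first Rbfox2 promoter they were at Cabin1 (0.964), Psmc1 (0.964) and BC055324 (0.963), and for the distal Rbfox3 promoter at Tmem263 (0.886), Zfp641 (0.885) and Kat14 (0.880). The libraries share their depth and scaling: the same 3 Rbfox peaks had r = 0.699, 0.855 and 0.409 with the log2 of the total normalised reads of a library, and a median r of 0.467, 0.556 and 0.283 with the 11986 peaks. These correlations are a description over 12 libraries, chosen as the highest of many.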

How the data were processed

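ChIP-seq of hippocampal nuclei gave 72 libraries in 6 tables, with 3 replicates per genotype. Input (24 samples) was not used here, having no column in any table. Single-end reads had been aligned by the authors to mm10 (GRCm38) with Bowtie2 2.3.5.1. They called enriched regions with epic2, kept consensus peaks found in at least 2 of 3 replicates, counted reads with DiffBind 3.10.1 and annotated peaks to the closest gene with ChIPseeker 1.36. The use of input and the handling of duplicates are not given in the sources used here. The deposited values are a signal, the reads in a 401-bp peak after division by a library-specific factor. Of all values 100% were whole multiples of 1 step (tolerance 0.001), so whole reads were recovered.

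The members and gene lists were chosen with earlier results of these data known. A peak was a member if its deposited symbol was Rbfox1, Rbfox2 or Rbfox3. Peaks at a promoter, and called peaks, are given in every library. Genes that are no member were named by the highest correlation with a member, or by the smallest p in a list, with no more than 3 each. Columns were matched to samples by the table (antibody, fraction) and by the column name (genotype, replicate).

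For each table limma 3.58.1 (limma-trend, R 4.3.3) was fitted to log2(value + 1) of the 12 libraries with genotype as the only term and no filter. A call was an unadjusted p under 0.05 with an absolute log2 fold change over 0.5, and p was adjusted over all peaks. The log2(value + 1) scale understates changes at low peaks. The plan named limma-trend, with edgeR reserved for raw counts, and the values were not raw counts. Since residual degrees of freedom are 8, the spread was shared across peaks (prior degrees of freedom 24.9 for H3K4me3 in NeuN+ and 58.3 in NeuN- nuclei, unlimited for H3K27me3). Alternatives were pseudocounts of 0.5 and 5, TMM, total-read and cyclic loess scaling, edgeR 4.0.16 and DESeq2 1.42.0 on the recovered reads, robust empirical Bayes, a replicate block, a filter (at least 10 normalised reads in at least 3 libraries), the 6 libraries of a contrast, and leaving out each library. The fits were tested on simulated data. GC, CpG and masked bases were read from GRCm38. The sequence of the internal Rbfox3 promoter is not reported here. A repeat peak has at least 50% of masked bases. Replicates are pools of animals, and p-values measure the spread between pools. For H3K27me3 in the main fit that spread was the trend over all peaks, not that of the single peak. Limits for 0 reads cover counting error only.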

Additional observations from a re-analysis of the deposited data

How the results depend on the processing

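With no Rbfox peak differing among genotypes at an adjusted p under 0.05, the 11 alternatives and the 36 fits without 1 library gave 0 of 22 as well. The calls at an unadjusted p depended on the setting. In Mutyh-/- 2 peaks were called, 1 with a pseudocount of 5, total reads, edgeR with the authors' scaling or robust empirical Bayes, 0 with the filter (which tested 3 of the 13 H3K27me3 peaks), 3 with cyclic loess or DESeq2, and 1 to 2 without 1 library. In Ogg1-/- 0 were called, 1 with edgeR and TMM (the first Rbfox1 promoter), and 0 to 1 without 1 library, with 1 when Ogg1-/- replicate 2 was left out. In DKO 1 was called, 0 with a pseudocount of 0.5, total reads, cyclic loess, edgeR with the authors' scaling or the filter, and 0 to 1 without 1 library. The cause was not tested. Over the alternatives p ran from 0.0147 to 0.0723 for the third Rbfox2 promoter, from 0.0120 to 0.0804 for peak 5 of Rbfox3 and from 0.0181 to 0.0995 for peak 11. Counts over all peaks moved more: for H3K4me3 in NeuN+ nuclei 115, 122 and 185 peaks were called in Mutyh-/-, Ogg1-/- and DKO, and 473, 481 and 699 with TMM factors in limma. In Mutyh-/- cyclic loess called 483 of 12628 of these peaks and 91 of 1698 for H3K27me3 in NeuN- nuclei. DESeq2 called 378 of 12625 and 105 of 1698, the filter 108 of 12434 and 5 of 563, and the main fit 115 and 34. In Ogg1-/-, 501 of 12628 H3K4me3 peaks in NeuN+ nuclei were called with edgeR and TMM, and 411 without Ogg1-/- replicate 2. For H3K27me3 in DKO the main fit called 39 of 1698, total reads 20 and cyclic loess 71.

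The difference from WT in the log2 ratio of the Rbfox3 promoters ran from -0.126 to 0.596 in Mutyh-/-, from 0.381 to 0.975 in Ogg1-/- and from -0.0526 to 0.721 in DKO when 1 replicate was left out. It changed sign in Mutyh-/- without WT replicate 1 (-0.126) or Mutyh-/- replicate 2 (-0.0816) and in DKO without DKO replicate 2 (-0.0526). The log2 ratio of NeuN+ to NeuN- at the first Rbfox2 promoter was 1.541 in normalised reads, -0.385 in RPM of the reads in peaks and -1.456 with repeat peaks left out, so its direction follows the scaling.

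Whether equal replicate numbers pair the samples was not settled. The correlation of same-numbered deviations from the group means was -0.101 to 0.0687 for H3K4me3 in NeuN+ nuclei. In NeuN- nuclei it was positive in every pair, at 0.00759 to 0.125 for H3K4me3 and 0.00114 to 0.153 for H3K27me3. No contrast had all 3 pairs over 0.1. For H3K27me3 in NeuN- nuclei, replicate 1 had the lowest share of reads in repeat peaks in each genotype. With the replicate block 2, 0 and 1 Rbfox peaks were called in Mutyh-/-, Ogg1-/- and DKO, and 0 differed among genotypes after adjustment, as without the block. Over all peaks it raised the calls for H3K27me3 in NeuN- nuclei from 34 to 83 in Mutyh-/-, from 71 to 136 in Ogg1-/- and from 39 to 75 in DKO. At 1 to 8 reads per median H3K27me3 peak, depth limits what single peaks can show.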
